A study of Mus musculus with 18 samples.

Results

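The comparison described here is the middle step of a collagen density series, from 2.6 to 3.5 mg/ml, and it asks whether gene expression of migrating dendritic cells (DCs) changes between the middle densities or stays flat. It holds 6 of the 18 libraries of the series, the 3 titled 3.5 mg/ml and the 3 titled 2.6 mg/ml, chosen by their titles alone. The cells of both groups were wild-type C57Bl6/J mouse DCs, grown from bone marrow of mice aged 8 to 12 weeks with GM-CSF and matured from day 8 with lipopolysaccharide (LPS, 200 ng/ml) for 24 hours. They sat in a gel of bovine collagen below a source of the chemokine CCL19, and RNA was taken 5 hours after the gradient was set up. The other libraries were gels of 1.7 and 4.4 mg/ml, handled alike, and 2 groups of cells in the same chambers without collagen. Those 2 groups entered the filter, the scaling and the fit, with its spread and replicate effects, but no comparison.

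DCs are the antigen-presenting cells that carry antigen from tissue to lymph nodes. After maturation they display CCR7, the receptor for CCL19, and crawl through fibrous tissue by squeezing through its pores. A denser collagen gel has narrower pores and more junctions between paths. The study reasoned that cells explore a more complex gel with more protrusions. It reports centrosome deformation at path junctions and in narrow pores, but does not compare it across gel densities. Genes known to answer to dense surroundings include early response transcription factors, hypoxia targets, interferon-stimulated genes, and genes of the actomyosin cortex.

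Markers of the labelled cell type were present in each library. All 12 DC markers were detected in all 6. CPM are counts scaled by library size with edgeR's TMM method. In replicates 1, 2 and 3 the markers summed to 51779, 76661 and 49113 CPM at 2.6 mg/ml. At 3.5 mg/ml they summed to 46801, 69845 and 106304 CPM, lower in replicates 1 and 2 and over 2-fold higher in replicate 3. In the replicate 3 libraries of 1.7 and 4.4 mg/ml the sums were 92042 and 114624 CPM. *Ccr7* itself had 3996, 4167 and 3132 CPM at 2.6 mg/ml and 4062, 3945 and 4630 CPM at 3.5 mg/ml in replicates 1, 2 and 3. Bulk RNA does not tell apart fewer cells of a type from less RNA per cell. The 2.6 mg/ml libraries held 18576048, 13178096 and 28059839 counts in replicates 1, 2 and 3, and the 3.5 mg/ml libraries 16084553, 13062944 and 13823519. At these depths, 3 counts correspond to 0.107 to 0.230 CPM.

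The replicates differ in more than density. The library names give each replicate number its own date and sequencing lane, and the number entered the fit as a block. *Xist*, the RNA of the inactive X chromosome, had 0 counts in both libraries of replicate 3 and between 817 and 2844 counts in the other 4, while the methods name male mice. Its state was shared within each pair, so that it does not separate the densities. Replicate 3 stood apart at both densities: its libraries deviated from the mean of the other collagen libraries with an SD over genes of 0.976 and 0.988 on the log2 scale, against 0.680 to 0.703 in the other 4. Many of the values below are therefore given by replicate. Where only a fitted value is printed, replicate 3 can carry it. Replicate 2 at 2.6 mg/ml held RNA of the collagen genes among the fibroblast markers, given below.

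No gene passed the test between 3.5 and 2.6 mg/ml. Of 13844 genes tested with edgeR's quasi-likelihood test, 0 passed a false discovery rate (FDR) of 0.1, which is 0% of the genes, and the smallest adjusted p was 0.929. At an unadjusted p under 0.05 there were 580 genes (4.19%), 127 higher and 453 lower at 3.5 mg/ml. DESeq2 and limma-voom, both with the block, also called 0 genes, with 758 and 489 genes under that unadjusted threshold. Without a filter on low counts, edgeR called 56 genes, 7 higher and 49 lower. Of these, 48 were among the genes tested above, and in 34 a single library held more counts than the other 5 of the 6 together.

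The neighbouring steps gave no called gene in edgeR either. From 1.7 to 2.6 mg/ml 0 genes passed (0%), with 1207 (8.72%) at an unadjusted p under 0.05, and from 3.5 to 4.4 mg/ml 0 genes passed (0%), with 1448 (10.5%). The difference between steps was tested directly. For the last step against the middle step 0 genes passed (0%), with 547 at an unadjusted p under 0.05, and for the middle step against the first 0 genes passed (0%), with 1126. Each of these tests was edgeR's, and neighbouring steps share a group. DESeq2 called 261 genes in the last step, and edgeR with offsets for GC content and length called 6, where both called 0 in the middle step and 0 for the last step against the middle. Between the ends of the range, 4.4 and 1.7 mg/ml, 239 genes passed (1.73%), of which 155 were higher (1.12%) and 84 lower (0.607%) at 4.4 mg/ml. That count depended on the fit: 1 gene was higher and 0 lower without the replicate block, 13 and 2 without replicate 1, and 0 genes passed without replicate 2, while DESeq2 called 555 higher and 363 lower and the offsets gave 560 and 311.

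How flat the middle step was can be read from the intervals. The median absolute log2 fold change was 0.29 and its median standard error 0.37, so the typical difference was smaller than its error. For 5803 genes (41.9%) the 95% interval lay within a 2-fold change in either direction, against 4985 genes in the first step and 5400 in the last. Within a 1.5-fold change it lay for 733 genes (5.29%). For the remaining genes the data do not show that the level stayed the same. The share rose with the level of expression: with the genes in 4 equal groups by mean CPM, 0.231% of the lowest group had an interval within 2-fold, then 30.1%, 62.1%, and 75.2% of the highest. The genes with an interval within 1.5-fold had a median of 76.8 CPM, against 12.7 CPM over all genes tested.

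The 4 genes with the narrowest intervals above 50 CPM show how closely the best measured genes were bounded. *Copg1*, a subunit of the COPI vesicle coat, had 151, 151 and 141 CPM at 2.6 mg/ml and 129.9, 144 and 142 CPM at 3.5 mg/ml. Its log2 fold change was -0.09 (SE 0.19, 95% interval -0.48 to 0.30). *Ssrp1*, a subunit of the histone chaperone FACT, had a log2 fold change of 0.05 (interval -0.36 to 0.45), and *Dctn4*, a subunit of the dynein activator dynactin, one of -0.06 (interval -0.45 to 0.34). *Dnajc8*, a co-chaperone linked to splicing, was higher in each replicate, with a log2 fold change of 0.46 (interval 0.05 to 0.86, above 0 and past 1.5-fold, adjusted p = 0.929 from edgeR). *Fth1*, the ferritin heavy chain and the gene with the highest mean CPM, had an interval of -0.70 to 1.01.

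The differences of the replicates were correlated weakly or not at all. In replicate 1 the difference between the 3.5 and 2.6 mg/ml libraries had an SD over genes of 0.523 on the log2 CPM scale, in replicate 2 of 0.693, and in replicate 3 of 1.14. More than 2-fold apart, in either direction, were 876 of all genes tested in replicate 1 (6.33%), 1540 in replicate 2 (11.1%), and 4770 in replicate 3 (34.5%). Of those 4770 genes, 158 were over 2-fold the same way in replicate 1 and 536 in replicate 2, and 34 genes were so in all 3 replicates. Across genes, which are not independent replicates, the differences of replicates 1 and 2 correlated with r = 4.2e-05, those of 1 and 3 with r = -0.19, and those of 2 and 3 with r = 0.19. In the first step these correlations were 0.11, 0.30 and 0.22, and in the last 0.09, 0.03 and 0.26. The sign was the same in 3 of 3 replicates for 3558 genes (25.7%), against 5603 in the first step and 3886 in the last.

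**Figure D1:**
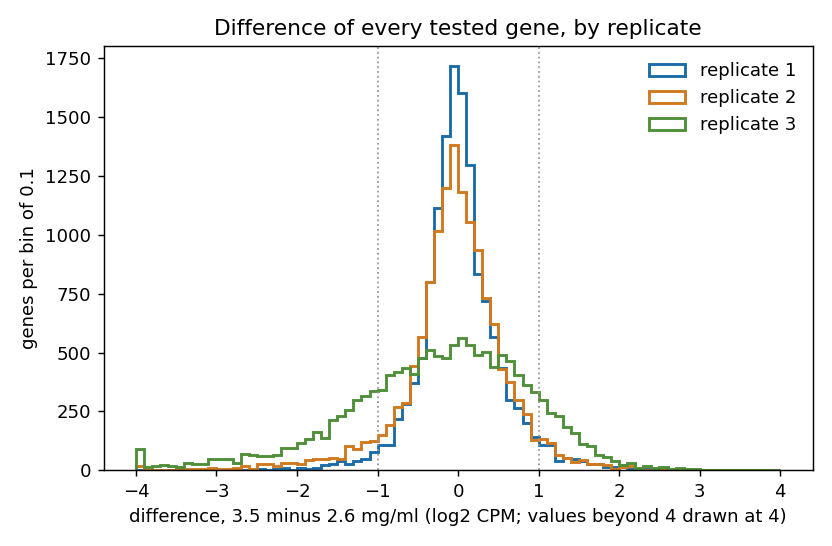
Number of genes (y axis, per bin of 0.1) by their difference between 3.5 and 2.6 mg/ml (x axis, log2 CPM), 1 outline for each replicate, with dotted lines at a 2-fold change and larger differences than 4 drawn in the outermost bins. Replicates 1 and 2 form narrow peaks around 0, and replicate 3 a broad one with 4770 genes beyond 2-fold.

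The difference in replicate 3 moved with the length of the genes. Genes in the fifth with the shortest exons (up to 1988 bases) had a median difference of 0.49 there and those in the fifth with the longest (from 7145 bases) one of -0.74, with a Spearman correlation over genes of -0.36. The correlations with length were 0.06 and -0.07 in replicates 1 and 2. In the first step of replicate 3, which shares the 2.6 mg/ml library, the signs were opposite. There the fifth medians were -0.51 (shortest) and 0.72 (longest), with a correlation of 0.37. That shared library had 22294 genes detected, and the 3.5 mg/ml library of replicate 3 had 15845. With GC content the middle-step correlation was -0.31, -0.26 and 0.23 in replicates 1, 2 and 3. With loess offsets for GC content and length, still 0 genes passed the FDR of 0.1 and 577 had an unadjusted p under 0.05. In that fit 7244 genes had an interval within 2-fold, the medians of the genes higher and lower at 4.4 mg/ml, given below, were -0.09 and -0.08, and 4 of 72 named genes changed sign. The part of length and GC content in the list medians was not tested.

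Genes that changed over the whole range of density had a median change near 0 between the middle densities. These genes were chosen from the libraries of 1.7 and 4.4 mg/ml, which the middle step does not use. The 155 genes that were higher at 4.4 than at 1.7 mg/ml had a median log2 fold change of -0.07 from 2.6 to 3.5 mg/ml (quartiles -0.35 and 0.06), with 51 above and 104 below 0, and 0 called. The same genes had medians of 0.62 in the first step and 1.11 in the last, which share libraries with the comparison that chose them. In replicates 1, 2 and 3 they were 0.28, 0.52 and 0.92 in the first step and 0.66, 1.67 and 0.89 in the last. The 4.4 mg/ml library of replicate 2 deviated from the other collagen libraries with an SD of 0.983. That is near the 0.976 and 0.988 of replicate 3 at the middle densities. The middle change minus an equal share of the whole change had a 95% interval wholly below 0 in 55 of the 155 genes. That share comes from the comparison that chose the genes, so the count follows in part from the choice. Over all 13844 genes, not so chosen and changing in either direction, the interval lay wholly below 0 in 582. The 84 genes that were lower at 4.4 mg/ml had a median of -0.18 in the middle step, with 18 above and 66 below 0, against -0.27 and -0.82 in the first and last steps. In 4 of these the interval of the same difference lay wholly above 0, with the same limit. Over all genes no count was made in that direction. Over all genes tested the median was -0.06.

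The median near 0 of the 155 genes averaged replicates that went different ways. It was 0.47 in replicate 1, -0.23 in replicate 2, and -0.59 in replicate 3. In replicate 1 the median level of these genes was higher at each successive density, whereas in replicates 2 and 3 it was lower at 3.5 than at 2.6 mg/ml. When all libraries of replicate 3 were left out, the 133 genes higher at 4.4 mg/ml in that fit had a middle median of 0.32, and without replicate 1 the 13 such genes had one of -0.57. Leaving out single libraries of 2.6 mg/ml gave -0.35, -0.20 and 0.12 without replicates 1, 2 and 3, and leaving out those of 3.5 mg/ml gave -0.42, 0.03 and 0.02. For the 84 genes the medians of the replicates were -0.54, -0.02 and -0.13, beside -0.00065, -0.02 and -0.14 over all genes tested, so that they lay apart from all genes in replicate 1 alone.

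**Figure D2:**
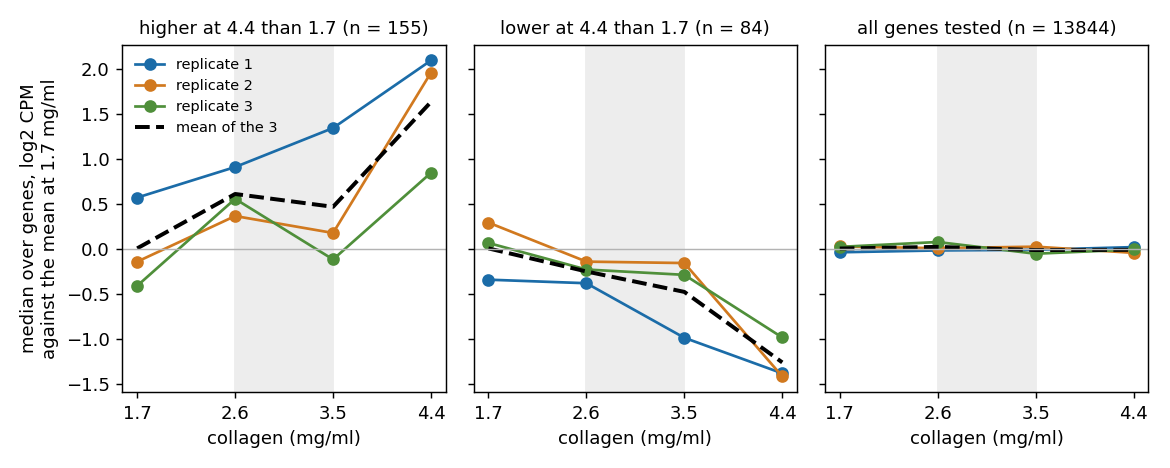
Median level (y axis, log2 CPM against the mean at 1.7 mg/ml) of the 155 genes higher at 4.4 than 1.7 mg/ml, of the 84 lower genes and of all 13844 genes tested, at each collagen density (x axis), 1 line for each replicate and a dashed line for their mean. Between 2.6 and 3.5 mg/ml, shaded, the first group was higher in replicate 1 and lower in replicates 2 and 3.

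Single genes of this group are given next. *Chka*, choline kinase alpha, which catalyses the first step of phosphatidylcholine synthesis, lies on chromosome 19 of GRCm38 (3851773 to 3894369). It had 108, 169 and 141 CPM at 2.6 mg/ml and 143, 121 and 133 CPM at 3.5 mg/ml. The groups overlapped, and replicate 1 was higher at 3.5 mg/ml while replicates 2 and 3 were lower. Its log2 fold change of -0.06 (SE 0.21) had an interval of -0.49 to 0.38, within 1.5-fold, against 1.68 (SE 0.21, adjusted p = 0.00367 from edgeR) between 4.4 and 1.7 mg/ml.

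*Dyrk3*, a kinase that dissolves membraneless organelles and acts at the centrosome, had 6.42, 6.80 and 5.17 CPM at 2.6 mg/ml and 7.82, 6.81 and 3.80 CPM at 3.5 mg/ml. Its 2 groups overlapped. The log2 fold change was -0.06 (SE 0.37, interval -0.84 to 0.72), so that a 2-fold change lay outside the interval but a 1.5-fold change did not. *Mx2*, an interferon-induced gene of the antiviral Mx GTPases, is annotated as a polymorphic pseudogene. It had 37.5, 9.18 and 6.30 CPM and then 57.9, 4.35 and 4.99 CPM, a log2 fold change of -0.15 (SE 0.34, interval -0.86 to 0.56). *Egr1*, an early response transcription factor, had 2.94, 3.18 and 2.54 CPM at 2.6 mg/ml and 4.11, 0.913 and 0.670 CPM at 3.5 mg/ml, a log2 fold change of -0.99 (SE 0.57, interval -2.18 to 0.20). In *Mx2* and *Egr1* as in *Chka*, replicate 1 was higher and replicates 2 and 3 were lower at 3.5 mg/ml, whereas in *Dyrk3* replicate 2 was level.

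Of the other genes named for a change over the whole range, *Mafk*, a small Maf transcription factor, had a middle log2 fold change of -0.28 (interval -0.82 to 0.26), *Spty2d1*, a histone chaperone, one of -0.16 (interval -0.80 to 0.49), and *Rasgef1b*, an exchange factor for Rap GTPases, one of -0.14 (interval -1.02 to 0.74). Among genes lower at 4.4 mg/ml, *Nbeal2*, a protein of granule biogenesis, had 46.3, 85.5 and 49.9 CPM at 2.6 mg/ml and 24.9, 66.3 and 31.65 CPM at 3.5 mg/ml. It was lower in 3 of 3 replicates, with a log2 fold change of -0.60 (SE 0.32, adjusted p = 0.929 from edgeR). *Slc27a3*, *Snn*, *Tbc1d10c*, *Lysmd4* and *Calhm2* had middle log2 fold changes between -0.19 and 0.22, with intervals that held 0.

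**Figure D3:**
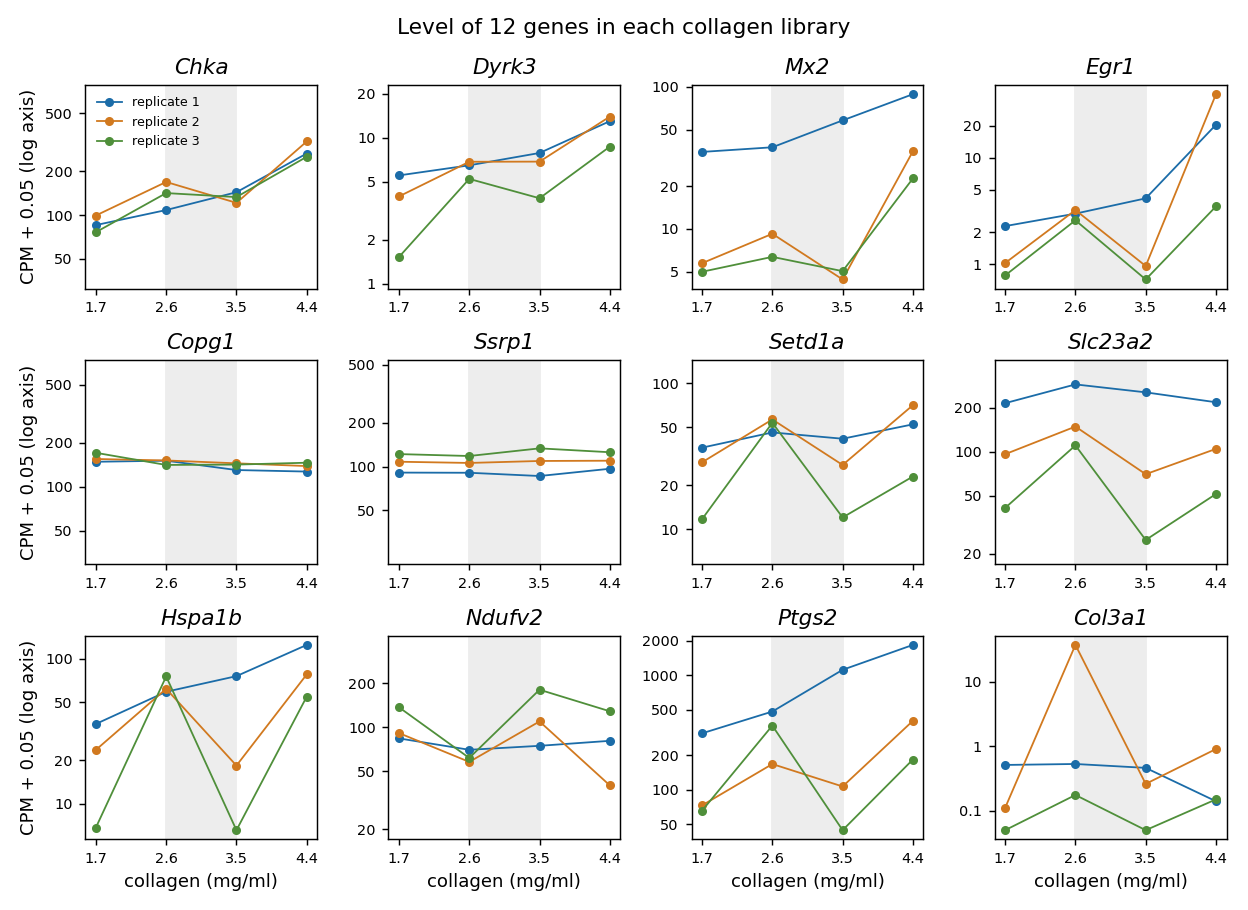
Level of 12 genes (y axis, CPM plus 0.05, log axis) in each of the 12 collagen libraries by collagen density (x axis), 1 line for each replicate, the middle step shaded. *Copg1* and *Ssrp1* stayed between 86.05 and 171 CPM, and *Chka* and *Mx2* were highest at 4.4 mg/ml in each replicate. *Setd1a* and *Slc23a2* were lower at 3.5 than 2.6 mg/ml in each replicate, by most in replicate 3. *Hspa1b* was higher in replicate 1 and lower in replicates 2 and 3, by most in replicate 3.

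The 12 genes with the smallest p-values of the middle step are given as values, since none passed (adjusted p = 0.929 for each, from edgeR). *Setd1a*, a histone H3 lysine 4 methyltransferase on chromosome 7 (127776670 to 127800122), had 46.0, 56.5 and 53.65 CPM at 2.6 mg/ml and 41.7, 27.5 and 12.0 CPM at 3.5 mg/ml. The groups did not overlap, and replicate 3 held the lowest value. The log2 fold change was -1.20 (SE 0.33), and -0.60 without replicate 3. *Slc23a2*, a vitamin C transporter, had 289, 149 and 110.3 CPM and then 255.0, 69.95 and 24.7 CPM, a log2 fold change of -1.21 (SE 0.34), and -0.65 without replicate 3. *Ppp1r12b*, a regulatory subunit of myosin phosphatase, had 28.7, 44.5 and 20.95 CPM and then 24.4, 19.45 and 3.87 CPM, a log2 fold change of -1.33 (SE 0.38), and -0.78 without replicate 3. All 3 genes were lower at 3.5 mg/ml in each replicate, and most strongly in replicate 3. In *Setd1a* the replicate 3 library of 2.6 mg/ml stood apart in that replicate, at 53.65 CPM beside 11.7 at 1.7, 12.0 at 3.5 and 22.9 at 4.4 mg/ml. Without that one library its middle log2 fold change was -0.69, that of *Slc23a2* -0.77, and that of *Ppp1r12b* -0.95.

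*Hspa1b*, an inducible HSP70 chaperone, had 59.2, 62.0 and 75.4 CPM at 2.6 mg/ml and 75.8, 18.3 and 6.55 CPM at 3.5 mg/ml. It was higher in replicate 1 and lower in the other two, with a log2 fold change of -1.68 (SE 0.47), and -0.71 without replicate 3. Its copy *Hspa1a* had 20.2, 15.5 and 20.5 CPM and then 20.2, 6.81 and 7.97 CPM, a log2 fold change of -0.87 (SE 0.38). How the counting treated reads that match both is not given in the sources used here, so the values of either gene are uncertain. The likeness of the genes reaches into their promoters, which are shown for that reason from 250 bases before to 50 after the start (RefSeq, GRCm38.p6), read on the minus strand.

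Hspa1b, chr17:34959189-34959488: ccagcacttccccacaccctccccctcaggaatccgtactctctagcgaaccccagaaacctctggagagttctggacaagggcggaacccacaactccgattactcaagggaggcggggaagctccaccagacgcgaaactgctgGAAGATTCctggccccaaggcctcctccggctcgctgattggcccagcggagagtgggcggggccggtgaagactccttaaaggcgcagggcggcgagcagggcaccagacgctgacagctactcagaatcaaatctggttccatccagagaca
Hspa1a, chr17:34972107-34972406: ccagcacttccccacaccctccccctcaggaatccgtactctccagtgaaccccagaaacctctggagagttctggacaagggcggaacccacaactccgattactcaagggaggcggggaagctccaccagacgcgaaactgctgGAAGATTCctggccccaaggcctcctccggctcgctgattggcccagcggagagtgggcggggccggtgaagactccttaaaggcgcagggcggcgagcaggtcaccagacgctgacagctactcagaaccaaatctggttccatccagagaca

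The windows differ in 4 of 300 bases (98.7% identical), and the capitals mark the single match in each to a core of the heat shock element, GAA and TTC parted by any 2 bases, on either strand. Such a match is held by 2582 of 32851 promoters (7.86%). Of the 21 cytosolic heat shock chaperones tested, 11 had a middle log2 fold change above 0 and 10 below, with a median of 0.01.

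*Col3a1*, the alpha chain of type III collagen, had 0.480, 37.0 and 0.125 CPM at 2.6 mg/ml and 0.411, 0.211 and 0 CPM at 3.5 mg/ml, and *Fkbp10*, a collagen chaperone, 0.360, 5.28 and 0 CPM and then 0, 0.140 and 0 CPM. Both were high in replicate 2 at 2.6 mg/ml alone. The log2 fold change of *Col3a1* was -5.03 (SE 1.29), and -1.40 without that library. Of 6 fibroblast markers 5 were tested, and the 6 summed to 16.8, 121 and 18.1 CPM at 2.6 mg/ml and to 20.1, 10.7 and 13.6 CPM at 3.5 mg/ml. *Col1a1* and *Col1a2* were high in the same library, with 40.5 and 33.3 CPM, while *Dcn* and *Lum* had 1.52 and 6.00 CPM there. Whether this RNA came from fibroblasts, and its part in other genes, was not tested.

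The remaining genes of the 12 had low levels. *Vaultrc5*, a vault RNA, had 0.420, 0.0723 and 0.439 CPM at 2.6 mg/ml and 0.823, 0.983 and 36.7 CPM at 3.5 mg/ml, where replicate 3 held nearly all of it. *Rtl9* had 3, 11 and 25 counts at 2.6 mg/ml and 0 in each library of 3.5 mg/ml, so that it was at least 8.80-fold lower there when 3 counts over the group are taken as the floor. *Tas1r3*, a taste receptor subunit, had 1.08, 3.40 and 2.85 CPM and then 0.548, 0.843 and 0.670 CPM, without overlap of the groups. The loci *Gm48427*, *Gm6277* and *Gm26772* were below 2 CPM in each of the 6 libraries.

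Gene lists had medians near 0 when read over the replicates together. Over 35 pathway lists with 960 tested members in all, 0 members passed the FDR of 0.1. At an unadjusted p under 0.05 there were 27 (2.81%), 7 higher and 20 lower, against 4.19% of all genes. The medians of the lists lay between -0.45 and 0.46 on the log2 scale. Beside the counts of members given below, 6207 of all 13844 genes tested were above 0 and 7637 below. The same sign in 3 of 3 replicates was found in 25.7% of all genes. For 24 lists the medians of the replicates had both signs, for 4 they were above 0 in 3 of 3 replicates, and for 7 below. The lists were written with earlier results of these libraries known.

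**Figure D4:**
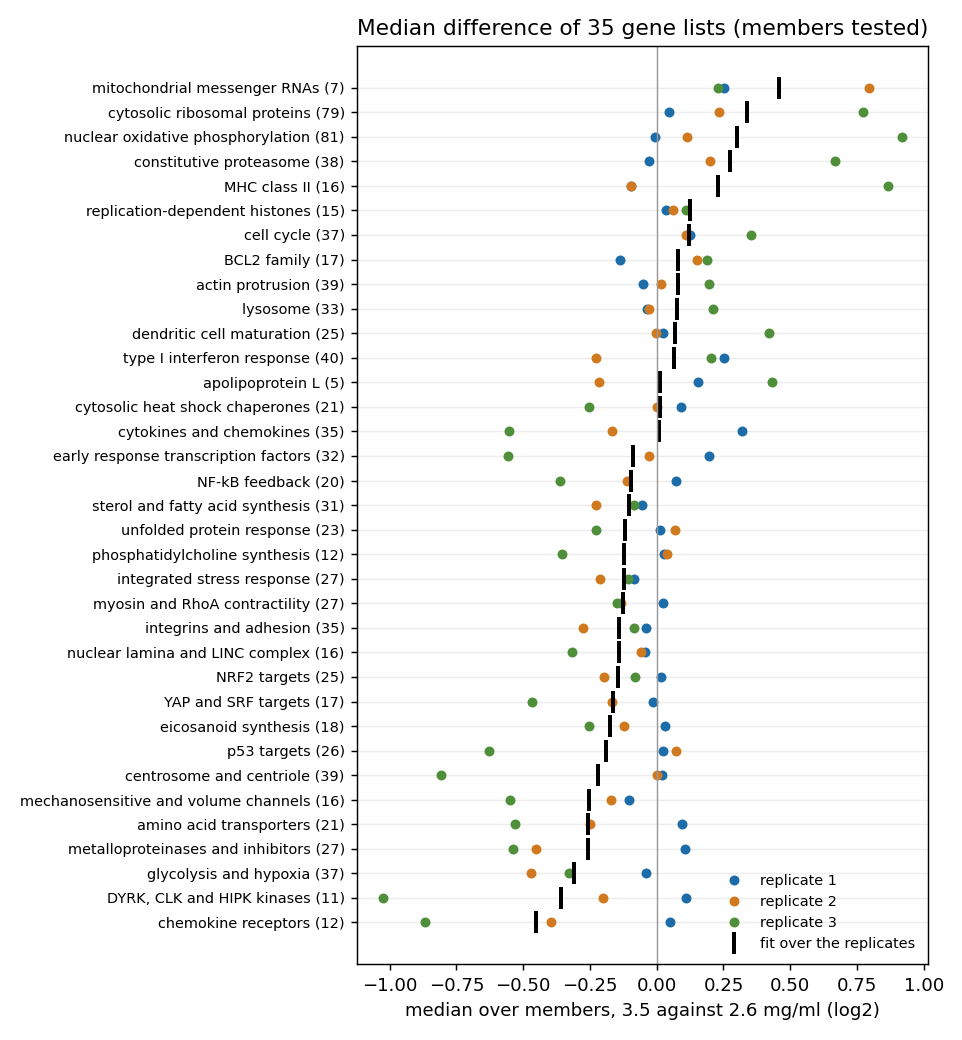
Median log2 difference between 3.5 and 2.6 mg/ml (x axis) over the tested members of each of 35 gene lists (y axis, number tested in brackets), with points for the replicates and a bar for the fit over all. The bars lie between -0.45 and 0.46, and the points of replicate 3 lie farthest from 0 in 28 lists.

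The interferon list had a median near 0 in the middle step, and a higher one in the next. Of 40 tested genes of the type I interferon response, 22 were above 0 and 18 below, with a median of 0.06. In replicates 1, 2 and 3 it was 0.25, -0.23 and 0.20. In the last step the median was 1.06, for which no values by replicate were made. The difference between the steps was not tested for the list, and no single gene passed that test. In 22 of the 40 genes the middle-step interval lay within 2-fold (55.0%). In the list, 10 genes were among the 155 genes higher at 4.4 than 1.7 mg/ml, and these had a middle median of 0.004 with values from -0.24 to 0.19. Their medians in replicates 1, 2 and 3 were 0.46, -0.53 and -0.28, so that the value near 0 averaged opposite differences. Over all genes 1.12% were in that group. *Ifit3*, an interferon-induced RNA-binding protein, had 18.2, 2.24 and 1.41 CPM at 2.6 mg/ml and 26.9, 1.19 and 0.893 CPM at 3.5 mg/ml, a log2 fold change of -0.01 (SE 0.52). *Oas2*, an oligoadenylate synthetase, was the member with the smallest p, at -0.83 (SE 0.36, adjusted p = 0.929 from edgeR), lower in replicates 2 and 3 and slightly higher in replicate 1. Replicate 1 held the highest level of *Ifit3*, *Oas2* and *Mx2* at both densities.

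The promoter of *Ifit3* is shown as that of a gene typical of the list (RefSeq, GRCm38.p6, plus strand, from 250 bases before to 50 after the start), with capitals where it matches the core of the interferon-stimulated response element, GAAA repeated after any 2 bases, on either strand.

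Ifit3, chr19:34583279-34583578: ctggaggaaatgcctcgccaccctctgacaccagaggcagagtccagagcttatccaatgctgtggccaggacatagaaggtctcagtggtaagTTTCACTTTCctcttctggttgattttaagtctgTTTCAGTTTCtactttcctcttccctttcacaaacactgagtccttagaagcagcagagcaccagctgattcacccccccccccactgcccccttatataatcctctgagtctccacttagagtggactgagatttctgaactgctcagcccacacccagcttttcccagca

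It holds 2 matches. Among promoters of the list, for which 29 of the 40 genes had an entry, 19 of 36 windows held a match (52.8%), against 1131 of 32851 of all windows (3.44%).

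Early response transcription factors, immediate targets of signalling, had a median of -0.09 over 32 genes, with 11 above 0 and 21 below. Replicate 1 had a median of 0.20, replicate 2 of -0.03, and replicate 3 of -0.56. Of them, 13 were higher at 4.4 than 1.7 mg/ml, and these had medians of 0.57, -0.39 and -0.73 in the 3 replicates. *Fosl2*, a partner of JUN in AP-1, had 343, 221 and 217 CPM and then 349.6, 164 and 76.9 CPM, a log2 fold change of -0.71 (SE 0.36). Cytokines and chemokines (35 genes) had a median of 0.01, with 0.32, -0.17 and -0.55 in the replicates. *Il12a*, a subunit of interleukin-12, was lower in 3 of 3 replicates, at -1.64 (SE 0.70, interval -3.10 to -0.18). *Ptgs2*, the cyclooxygenase of prostaglandin synthesis, had 481, 168 and 363 CPM at 2.6 mg/ml and 1113, 107 and 44.3 CPM at 3.5 mg/ml. It was over 2-fold higher in replicate 1 and lower in replicates 2 and 3. The NF-kB feedback list (20 genes) had a median of -0.10 with 16 intervals within 2-fold.

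Chemokine receptors had the lowest median, -0.45 over 12 genes with 9 below 0, and medians of 0.05, -0.40 and -0.87 in the replicates. *Ccr7* had a log2 fold change of 0.13 (SE 0.30). Genes of glycolysis and hypoxia had a median of -0.31 over 37 genes, 26 of them below 0, and -0.04, -0.47 and -0.33 in the replicates. *Eno2*, an enolase, was lower in 3 of 3 replicates without overlap of the groups, from 11.1, 15.4 and 11.3 CPM to 9.33, 10.5 and 1.94 CPM, a log2 fold change of -1.11 (SE 0.37, adjusted p = 0.929 from edgeR). In the last step the list of glycolysis and hypoxia had a median of 0.80, also without values by replicate or a test of the difference.

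Lists of the machinery of migration had medians between -0.26 and 0.08. Actin protrusion genes had a median of 0.08 over 39 genes, and in 35 of them (89.7%) the interval lay within 2-fold. That share was 41.9% over all genes and 75.2% in the highest of the 4 groups by mean CPM. Genes of like level were not compared. *Wasf2*, a subunit of the WAVE complex, which drives branched actin, had the smallest p, at -0.46 (SE 0.27). Integrins and adhesion genes had a median of -0.14 (24 of 35 within 2-fold), myosin and RhoA contractility genes one of -0.13 (15 of 27), and genes of the nuclear lamina and the LINC complex one of -0.14 (9 of 16). Mechanosensitive and volume channels had a median of -0.25, with 13 of 16 genes below 0, and medians below 0 in 3 of 3 replicates. *Tmem63b*, an osmosensitive cation channel, had 70.0, 74.4 and 77.8 CPM at 2.6 mg/ml and 69.7, 46.6 and 33.4 CPM at 3.5 mg/ml, a log2 fold change of -0.68 (SE 0.26). *Itgav*, the integrin alpha V chain, had one of -0.76 (SE 0.38), higher in replicate 1 and lower in the others. YAP and SRF targets had a median of -0.16, with 15 of 17 genes below 0, and -0.02, -0.17 and -0.47 in the replicates. Metalloproteinases and their inhibitors had a median of -0.26, with 22 of 27 below 0, and 0.11, -0.45 and -0.54 in the replicates.

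Kinases of the DYRK, CLK and HIPK families act on splicing factors, condensates and transcription. All 11 tested had a log2 fold change below 0, beside 7637 of all 13844 genes, with a median of -0.36. Values ranged from -0.06 in *Dyrk3* and *Dyrk1b* to -0.88 in *Hipk2*. The medians of the replicates were 0.11, -0.20 and -1.02, so that the sign was not shared by replicate 1. *Hipk1*, a nuclear kinase of stress signalling, had 311, 266 and 275 CPM and then 336, 156 and 77.2 CPM, a log2 fold change of -0.87 (SE 0.32, adjusted p = 0.929 from edgeR). Genes of the centrosome and centriole had a median of -0.22 over 39 genes, with 0.02, 0.00 and -0.81 in the replicates. *Cetn2*, a centriole protein, went the other way, with 8.94, 8.46 and 16.2 CPM at 2.6 mg/ml and 11.5, 18.6 and 29.7 CPM at 3.5 mg/ml, a log2 fold change of 0.79 (SE 0.25). It was higher in 3 of 3 replicates, and the groups overlapped.

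Most genes of translation, respiration and the proteasome had values above 0. Cytosolic ribosomal proteins had a median of 0.34, with 67 of 79 above 0, nuclear genes of oxidative phosphorylation one of 0.30, with 77 of 81 above 0, and the constitutive proteasome one of 0.27, with 35 of 38 above 0. None of these genes passed the test, with 3, 3 and 0 at an unadjusted p under 0.05. In replicate 3 the medians were 0.77, 0.92 and 0.67, and in replicate 1 they were 0.05, -0.01 and -0.03. *Ndufv2*, a subunit of respiratory complex I, had 70.1, 57.9 and 61.6 CPM and then 74.7, 109.8 and 181 CPM, without overlap, a log2 fold change of 0.81 (SE 0.33). *Rpl21* had under 4 CPM in each library and has many near-identical copies, so its 1.25 (SE 0.44) is uncertain. The 7 tested mitochondrial messenger RNAs were all above 0, with a median of 0.46 and medians of 0.25, 0.79 and 0.23 in the replicates. *mt-Nd4*, a complex I subunit, had 474, 648 and 593 CPM at 2.6 mg/ml and 669, 1124 and 1179 CPM at 3.5 mg/ml, without overlap, a log2 fold change of 0.78 (SE 0.39, adjusted p = 0.929 from edgeR). In the first step these lists had medians of -0.31, -0.35, -0.23 and -0.53.

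Lists of DC function and cell stress had medians near 0. DC maturation genes had a median of 0.07 (18 of 25 within 2-fold), lysosome genes one of 0.07 (29 of 33), and MHC class II genes one of 0.23, with -0.10, -0.10 and 0.87 in the replicates. *Cd86*, a costimulatory ligand for T cells, was higher in 3 of 3 replicates, from 343, 481 and 782 CPM to 423, 713 and 1048 CPM, a log2 fold change of 0.43 (SE 0.29). The integrated stress response and the unfolded protein response each had a median of -0.12, NRF2 targets one of -0.15 and p53 targets one of -0.19. By replicate, the unfolded protein response had medians of 0.01, 0.07 and -0.23, and p53 targets 0.02, 0.07 and -0.63. *Hyou1*, a chaperone of the endoplasmic reticulum, had 85.2, 83.3 and 81.1 CPM and then 70.3, 69.7 and 24.4 CPM, a log2 fold change of -0.87 (SE 0.36). Phosphatidylcholine synthesis, the pathway of *Chka*, had a median of -0.12 over 12 genes, and sterol and fatty acid synthesis one of -0.10 over 31, where *Srebf1*, its transcription factor, was at -0.58 (SE 0.25).

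The other lists had a median of 0.12 for the cell cycle (37 genes), in which *Cdk2* was at -0.94 (SE 0.33), of 0.08 for the BCL2 family (17), of -0.18 for eicosanoid synthesis (18), of -0.26 for amino acid transporters (21), of 0.12 for replication-dependent histones (15), and of 0.01 for apolipoprotein L (5). Histone mRNAs lack poly(A) tails, and the libraries were made from poly(A) RNA. By replicate, *Cdk2* differed by -0.13, -0.48 and -1.77 on the log2 CPM scale. Amino acid transporters had replicate medians of 0.10, -0.25 and -0.53. Macrophage markers had fitted values below 0 in 9 of 9, with a median of -0.23, replicate medians of 0.05, -0.46 and 0.03, and sums of 2132, 905 and 712 CPM and then 2190, 691 and 503 CPM. Neutrophil markers had a median of 0.15 over 12 genes, with sums of 1298, 4950 and 1689 CPM and then 1360, 5471 and 2164 CPM. These sums differed more between the replicates than between the densities. Eosinophil markers (9 genes) had a median of 0.23, basophil and mast cell markers (8) one of -0.13, T, B and NK cell markers (5) one of 0.40, and the erythroid gene *Hbb-bt* a log2 fold change of 0.64 (SE 0.47).

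**Figure D5:**
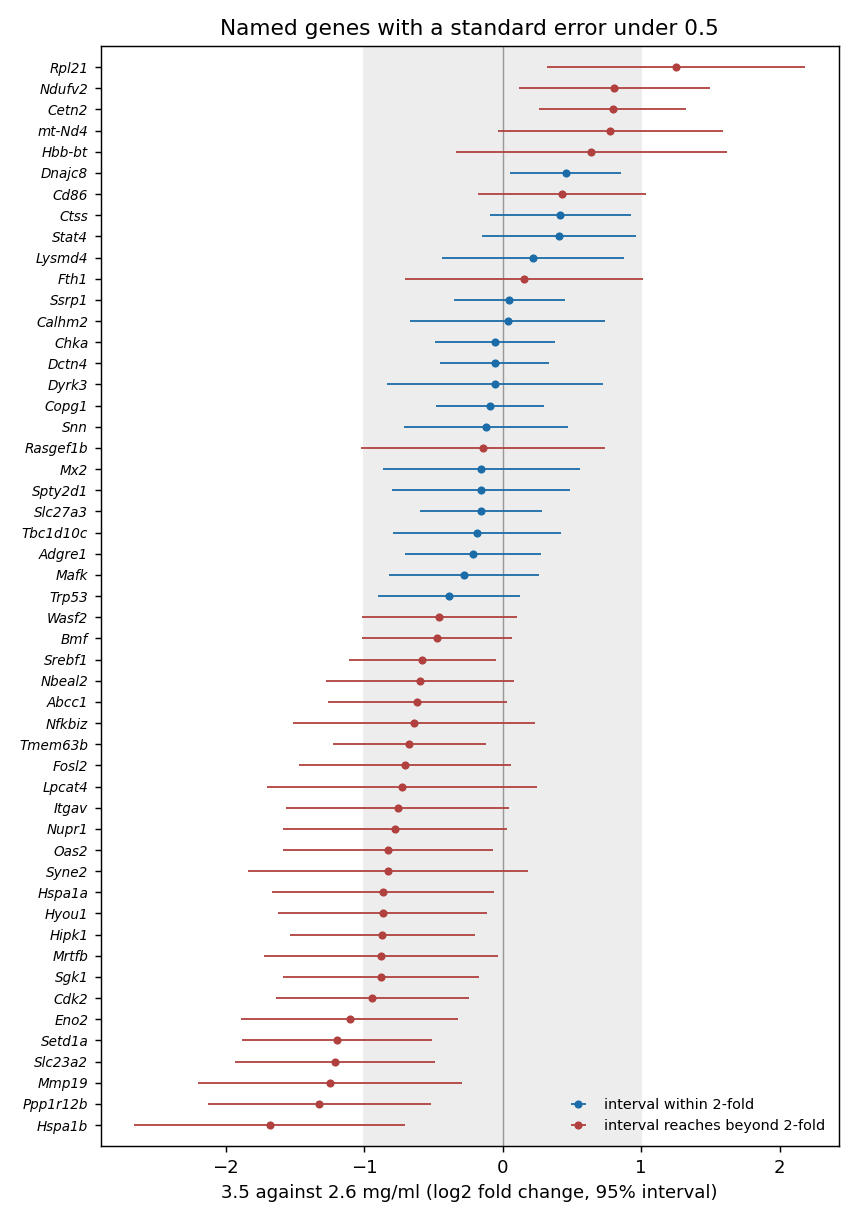
Log2 fold change between 3.5 and 2.6 mg/ml (x axis) with its 95% interval for 51 named genes (y axis) with a standard error under 0.5, many of them named for a small p. The interval lay within the shaded 2-fold band for 18 genes and reached beyond it for 33.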

How the data were processed

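RNA of 18 libraries was sequenced, 3 replicates in each of 6 groups, of which 12 were collagen gels. Per the labels and methods, the reads came from a stranded poly(A) kit and were aligned with STAR 2.7.0f to the mouse genome GRCm38. The authors deposited raw counts per gene, with no normalization, for 29875 genes in the table used here. The methods name RSEM for TPM values, and do not say whether it also made these counts. The use of strand and of reads with several matches is not given in the sources used here, so overlapping genes and near-identical copies are uncertain. No column of the table lacked a sample (0), and 0 of 153 pairs of libraries were identical.

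Groups followed the titles. The titles of the 2 groups without collagen and their library names contradict each other on CCL19, and no comparison used them. From the counts, edgeR 4.0.16 (R 4.3.3) fitted all 18 libraries with group and replicate number as terms after filterByExpr (13844 genes) and TMM scaling, and its quasi-likelihood test was adjusted by Benjamini-Hochberg at an FDR of 0.1. Standard errors and 95% intervals are Wald values. Log2 CPM used a prior count of 2. DESeq2 1.42.0 and limma 3.58.1 (voom) were alternatives, and the scripts were tested on simulated data. The pairing comes from dates and lanes in the library names: deviations from the group means correlated with a mean r of 0.43 between libraries of the same number (0.64, 0.44 and 0.35 between 2.6 and 3.5 mg/ml), and of -0.21 between different numbers. The sources do not state whether a replicate was 1 mouse. Depth sets 3 counts at 0.107 to 0.230 CPM.

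Named genes were the 12 with the smallest middle-step p, the 6 with the smallest p in each direction between 4.4 and 1.7 mg/ml, *Dyrk3* and *Chka*, the member of each list with the smallest p, the 4 with the smallest p for each difference of steps, the gene with the highest mean CPM, and the 4 with the narrowest intervals above 50 CPM. Other genes named (*Ccr7*, *Xist*, *Ifit3*, *Hipk2*, *Dyrk1b*, *Dcn*, *Lum*, *Col1a1* and *Col1a2*) were chosen after their values were seen. The comparison and the lists were chosen with earlier results of these data known. One gene that this rule names is not reported here. Promoters are RefSeq windows.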

Additional observations from a re-analysis of the deposited data

How the results depend on the processing

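In the middle step 0 genes passed under each alternative except the one without a filter on low counts, which called 56 there, 219 in the first step, 411 in the last, 93 for the last step against the middle and 275 for the middle against the first. Without the replicate block the middle step had 0 calls and 117 unadjusted ones, and 3534 genes had an interval within 2-fold in place of 5803. Fitting only the 6 libraries compared gave 0 calls, 315 unadjusted ones in place of 580, and 5910 genes within 2-fold. The 12 collagen libraries alone gave 0, 496 and 5818. The last step gave 261 calls with DESeq2 and 6 with GC and length offsets, both with the block. With a 1.5-fold bound 733 genes remained within it. Leaving out a replicate or a single library (the single ones chosen after seeing the data) gave 0 to 49 calls in the last step and 0 to 3 for the middle step against the first (both highest without replicate 1), 2140 to 6138 genes within 2-fold, and medians of -0.57 to 0.32 and of -0.46 to -0.017 for the genes higher and lower at 4.4 mg/ml. The fewest, 2140, were left without replicate 1, beside 3573 without replicate 2 and 3508 without replicate 1 of 2.6 mg/ml. Without replicate 2 no gene was called between 4.4 and 1.7 mg/ml, and without the block no lower gene, so those medians have no value there. Of 1206 values of the 72 named genes, 1150 kept their sign and side of the threshold, 46 changed sign without being called, and 10 were called without the filter. The causes were not tested. With 3 replicates and a median standard error of 0.37, the interval reached a 2-fold change in more genes than not.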
